A study of Mus musculus with 6 samples.

Results

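Oxidative phosphorylation is run by 5 membrane complexes whose subunits come from 2 genomes, and 98 protein-coding genes for these subunits were followed here among 55536 annotated genes in mouse perichondrium. Membership follows from the symbol, under a rule set with earlier results of these data known. Of these, 13 are encoded by the mitochondrial genome (symbols starting mt-Nd, mt-Co, mt-Atp and mt-Cytb) and 85 by nuclear genes (Ndufa, Ndufb, Ndufc, Ndufs, Ndufv, Uqcr, Sdha to Sdhd, Cox4 to Cox8 and Atp5). The assembly factors named Ndufaf and the regulator Ndufa4l2 were left out. By complex, the mitochondrial members were 7 of complex I, 1 of complex III, 3 of complex IV and 2 of complex V, and the nuclear members were 37, 4, 8, 18 and 18 of complexes I to V.

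RNA sequencing measured perichondrium, the connective tissue sheath around growing cartilage, taken by microdissection from mouse limb bones on postnatal day 4 (P4). The 3 knockout libraries came from Fbn1Scx-/- mice, which lack Fbn1, the gene of the microfibril protein fibrillin-1, in cells in which a Cre recombinase driven by the scleraxis gene (Scx) was active. The 3 other libraries came from wild-type (WT) mice. Scx marks tendon and ligament cells and related connective tissue, and cells without Scx activity keep Fbn1. The sources used here do not state which exons were deleted, or whether the wild-type mice carried floxed alleles or Cre. Libraries are named by their titles, as mut-596 or WT-795, and the labels do not explain the numbers. Wherever 3 values stand for a group, they follow the numbers in ascending order. Nothing in the labels ties a library to an animal of its own, so a p-value here reflects variation among these libraries, some of which may be technical.

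Complexes I to IV pass electrons from NADH and succinate to oxygen and, apart from complex II, pump protons across the inner mitochondrial membrane, and complex V uses the proton gradient to make ATP. The mitochondrial genome encodes core membrane subunits of complexes I, III, IV and V. Both of its strands are transcribed as long precursors that are cut into shorter RNAs. The nuclear genome encodes all of complex II and the remaining subunits. Some complex IV subunits exist as a ubiquitous and a muscle isoform from separate genes. In bulk tissue, fewer cells of a type and less RNA per cell cannot be told apart.

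Total counts per library lay between 7209217 and 10316017. Fbn1 stood at 10.04, 6.75 and 7.10 CPM (counts scaled for library size, here by TMM) in knockout, against 119.2, 84.7 and 63.5 CPM in the wild-type libraries, so every library matched its label (log2 fold change -3.48, SE 0.29, edgeR adjusted p = 0.000103). Xist, the RNA of the inactive X chromosome in females, had 6221 counts in mut-596, 4024 in mut-597 and 1 to 4 in each other library, so the sexes were unequally spread over the groups. The labelled tissue was present: perichondrial and fibroblast markers summed to between 36698 and 38970 CPM. Skeletal muscle markers were also found in all libraries, with the highest sum in WT-597 (14695 CPM) and the lowest in mut-596 (3631 CPM). The brown fat marker Ucp1 had 0 counts in each library. WT-795 stood apart from the other wild-type libraries and close to the knockout libraries in the level of the mitochondrial members and in its trend with GC content, and counts of members and list genes past the threshold are given with and without it.

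No member passed the threshold of edgeR's quasi-likelihood test (Benjamini-Hochberg adjusted p under 0.05 over all 15712 genes tested). Of the 98 members, 95 had enough counts to be tested. The 3 without enough counts were Cox7b2, Cox8c and a second annotation record of Atp5o. Over all genes the same threshold called only Fbn1, which is 0.00636% of genes tested. At an unadjusted p under 0.05, 6 nuclear members were lower in knockout libraries and no member was higher. The background at that level was 10.5% of genes, 7.12% lower and 3.37% higher. DESeq2 and limma-voom also called 0 members. The 2 genomes pointed in different directions, and that difference was not tested. All 13 mitochondrial members had a log2 fold change above 0, with a median of 0.54, while 51 of the 82 nuclear members tested lay below 0, with a median of -0.13. Over all genes tested, 50.9% lay above 0 and the median was 0.01.

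**Figure D1:**
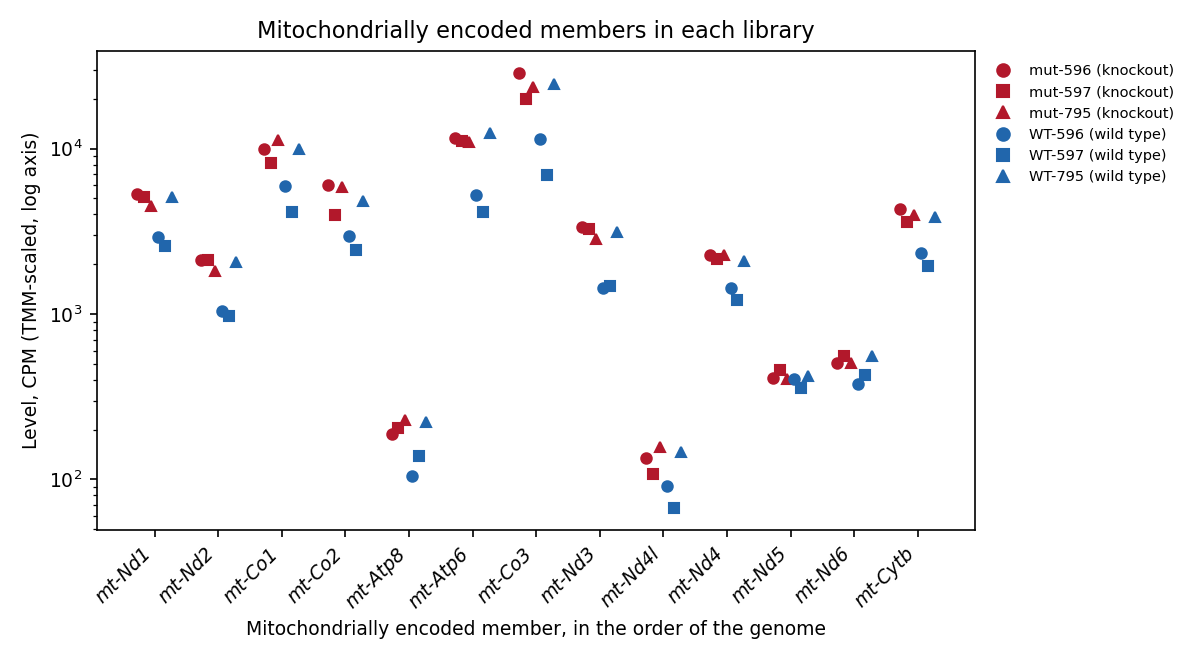
Level of each mitochondrially encoded member (CPM, log axis) in the order of the genome, 1 point per library, red for knockout and blue for wild type. For most members the triangle of WT-795 lies among or close to the red points, and WT-596 and WT-597 lie below them.

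The largest mitochondrial level belonged to mt-Co3, a core subunit of cytochrome c oxidase (complex IV). It measured 28819, 19923 and 23512 CPM in the knockout libraries and 11382, 6949 and 24513 CPM in the wild-type libraries. The groups overlapped, because WT-795 exceeded mut-597 and mut-795. The knockout mean was 24085 ± 4475 CPM and the wild-type mean 14281 ± 9134 CPM (SD, n = 3 each). The log2 fold change was 0.75 (SE 0.42, edgeR adjusted p = 0.487). The other mitochondrially encoded complex IV subunits had log2 fold changes of 0.63 for mt-Co2 and 0.56 for mt-Co1.

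The same arrangement held for the proton channel subunit of ATP synthase. mt-Atp6 measured 11529, 11107 and 10921 CPM in the knockout libraries and 5250, 4155 and 12408 CPM in the wild-type libraries. WT-795 was the highest of the 6 libraries. The log2 fold change was 0.62 for mt-Atp6 (SE 0.38, edgeR adjusted p = 0.507) and 0.41 for mt-Atp8, the small neighbouring subunit. mt-Cytb, the only mitochondrial subunit of complex III, measured 4286, 3592 and 3952 CPM against 2329, 1945 and 3860 CPM, and WT-795 again lay within the knockout range. Its log2 fold change was 0.54 (edgeR adjusted p = 0.487).

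The complex I members of the mitochondrial genome spanned the widest range. The membrane subunit mt-Nd3 measured 3345, 3287 and 2847 CPM in the knockout libraries and 1435, 1473 and 3143 CPM in the wild-type libraries, and it had the highest value of the 7, at 0.65 (edgeR adjusted p = 0.475). mt-Nd4, another membrane subunit, measured 2261, 2154 and 2271 CPM in the knockout libraries and 1434, 1212 and 2105 CPM in the wild-type libraries. It was the only one of the 95 members tested whose groups did not overlap, and WT-795 lay just below the lowest knockout library. Groups did not overlap for 11.9% of all genes tested (5.66% higher and 6.22% lower), so 1 of 95 is below the background. mt-Nd2, mt-Nd1 and mt-Nd4l had log2 fold changes of 0.58, 0.49 and 0.40. The lowest were mt-Nd6 at 0.21 and mt-Nd5 at 0.10.

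mt-Nd5 and mt-Nd6 lie tail to tail near the end of the coding region and overlap by 14 bases. mt-Nd5 measured 412.8, 457.6 and 405.4 CPM in the knockout libraries and 407.4, 355.5 and 423.5 CPM in the wild-type libraries. mt-Nd6, the only protein-coding gene transcribed from the other strand, measured 507.9, 556.6 and 508.1 CPM against 375.8, 425.1 and 555.9 CPM. In both, the 3 wild-type libraries differed less from each other than in mt-Co3. The library chemistry does not mark strand, so RNA of the 2 strands cannot be told apart, in the overlap or over the rest of either gene. The levels of both genes are uncertain for that reason.

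Per kilobase of transcript, the wild-type level of the mitochondrial members fell in the order mt-Co3, mt-Atp6, mt-Nd3, mt-Co2, mt-Co1, mt-Nd1, mt-Cytb, mt-Nd2, mt-Nd4, mt-Nd6, mt-Atp8, mt-Nd4l and mt-Nd5. mt-Co3 stood at 18216 ± 11651 CPM per kb (SD, n = 3) and mt-Nd5 at 216.8 ± 19.5 CPM per kb (SD, n = 3). At the top the ranges over the wild-type libraries overlapped, at 8864 to 31267 CPM per kb for mt-Co3 and 6102 to 18220 for mt-Atp6. Within each wild-type library mt-Co3 lay above mt-Atp6, and both were lowest in WT-597 and highest in WT-795. The ranges of mt-Nd3, mt-Co2, mt-Co1 and mt-Nd1 also overlapped. mt-Nd5 lay below mt-Nd4, its neighbour upstream, in each wild-type library, with 194.9 to 232.2 against 879.3 to 1528 CPM per kb. The genes mt-Atp8 and mt-Atp6 overlap by 43 bases and mt-Nd4l and mt-Nd4 by 7 bases, so part of their reads is shared. The separate levels and ranks of these genes are uncertain for that reason.

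Several mitochondrial members have near-identical copies in the nuclear genome, and the deposited counts cannot separate them. On chromosome 1 (GRCm38, minus strand) a run of pseudogenes repeats part of the mitochondrial genome. Gm28437 at chr1:24613189-24613971 matched mt-Co3 (chrM:8607-9390) with 0 mismatches over 783 bases. Over the 6 libraries, 950016 counts were assigned to mt-Co3 and 960035 to Gm28437. Gm10925 stood at 105.1% of the count of mt-Atp6, Gm28438 at 101.5% of mt-Nd3, Gm10222 at 100.4% of mt-Nd4l and Gm28661 at 100.2% of mt-Co2. Gm29216, which covers 31.3% of mt-Co1, stood at 77.9% of its count. A second copy, Gm13340, matched mt-Co1 over its whole length at 97.6% identity and stood at 20.4%. Gm28439, which covers 63.6% of mt-Nd4, stood at 27.7%. mt-Nd2 has a copy over 49.1% of its length, Gm13339, which stood at 13.4%. The sources used here do not state how reads with several matches were counted, so the levels of these members are uncertain.

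Beside Gm29216, only the best-scoring match to each mitochondrial member was read, so other copies may exist. The remaining best-scoring copies differed more and drew few counts, at 3.48% or less of their member. Gm11410 on chromosome 4, at 92.9% identity to mt-Cytb, had 441 counts against 167814. The following stretches of 60 bases show these cases, from GENCODE M21 transcripts, with positions counted from the first base of the member. Capitals mark the bases at which member and copy differ. The first pair covers bases 362 to 421 of mt-Co3 and has none.
mt-Co3: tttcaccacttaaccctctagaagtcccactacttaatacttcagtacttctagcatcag
Gm28437: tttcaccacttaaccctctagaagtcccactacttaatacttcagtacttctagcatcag
mt-Nd3: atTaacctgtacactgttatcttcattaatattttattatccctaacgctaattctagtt
Gm28438: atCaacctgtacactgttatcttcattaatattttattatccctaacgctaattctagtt
mt-Cytb: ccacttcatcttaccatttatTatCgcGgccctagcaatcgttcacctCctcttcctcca
Gm11410: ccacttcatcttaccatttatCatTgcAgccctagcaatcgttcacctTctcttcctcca
The stretch of mt-Nd3 (bases 1 to 60) holds the single difference over 345 matched bases, T3C. The stretch of mt-Cytb (bases 543 to 602) holds T564C, C567T, G570A and C591T. The 5 members with a copy at almost equal counts (mt-Co3, mt-Nd3, mt-Co2, mt-Atp6 and mt-Nd4l) had log2 fold changes from 0.40 to 0.75. In 5 members the best-scoring copy drew few or no counts. Their values were 0.10 (mt-Nd5), 0.21 (mt-Nd6), 0.41 (mt-Atp8), 0.49 (mt-Nd1) and 0.54 (mt-Cytb). The 2 lowest values of the 13 were thus among members whose best-scoring copy drew few counts. The part of the copies in the values was not tested.

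**Figure D2:**
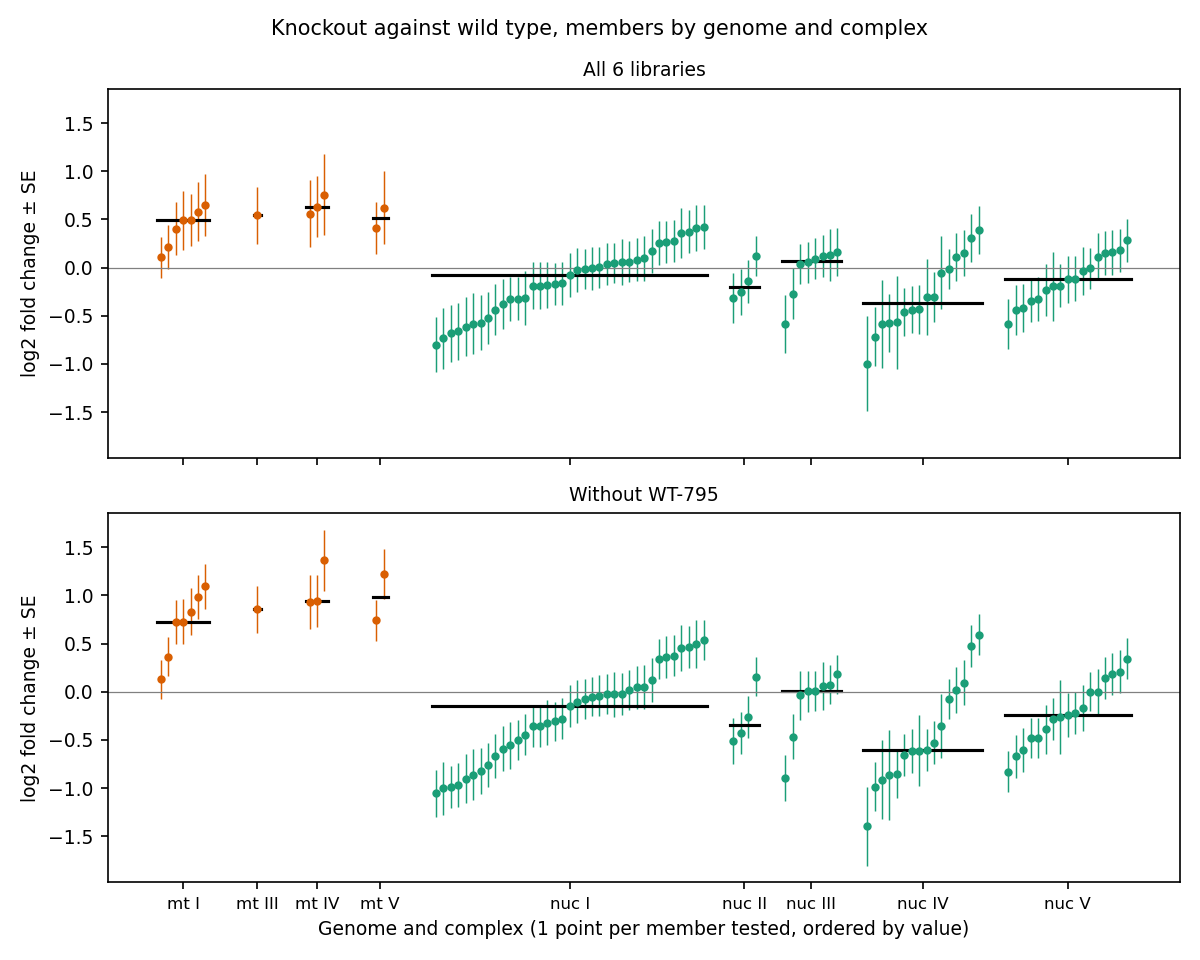
Log2 fold change (knockout against wild type) with its standard error for the 95 members tested, grouped by genome (mt or nuc) and complex, with all 6 libraries above and without WT-795 below. Black lines are medians: the mitochondrial groups lie above 0 in both panels, and the nuclear complex IV median moves from -0.37 to -0.61.

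No nuclear member of any complex passed the test, and the complexes had different medians. The median log2 fold change was -0.08 for complex I (15 members above 0 and 22 below), -0.20 for complex II (1 and 3), 0.07 for complex III (6 and 2), -0.37 for complex IV (4 and 12) and -0.12 for complex V (5 and 12). Nuclear sums hid these differences: the summed CPM of nuclear members was 9798, 11735 and 13669 in the knockout libraries and 11129, 13648 and 11033 in the wild-type libraries. The highest and the lowest nuclear sums were both knockout libraries. The median over all nuclear members, -0.13, was 0.02 without WT-597 and 0.01 without mut-596, the libraries with the most and the least muscle marker RNA. It was 0.08 with the muscle markers as a covariate and 0.06 with Xist as a covariate. Red cell markers summed to 4636, 9195 and 34970 CPM in the knockout libraries and 11263, 34066 and 10364 CPM in the wild-type libraries. Their sum was thus also lowest in mut-596, and it was highest in mut-795 and WT-597. Of 7 red cell markers, 3 lay above 0 and 4 below (median -0.51). The part of red cells in the nuclear values was not tested. Markers of some other cell types lay mostly below 0, and none passed the threshold. These were 30 of 33 skeletal muscle markers (median -0.70), 8 of 8 osteoblast markers (median -0.43) and 6 of 9 macrophage and osteoclast markers (median -0.39). Those of chondrocytes (8 above 0 and 6 below, median 0.15) and of perichondrium and fibroblasts (9 and 4, median 0.09) lay mostly above 0. Endothelial markers were split (3 and 3, median 0.08). The summed osteoblast markers were 2177, 3272 and 3200 CPM in the knockout libraries and 3343, 2839 and 3247 CPM in the wild-type libraries, and those of macrophages and osteoclasts were 257.1, 331.9 and 342.9 CPM against 491.2, 383.5 and 314.3 CPM. No sum separated the groups, and no marker of these lists was at 0 in any library.

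The nuclear complex I member with the smallest p was Ndufa10, an accessory subunit (chr1:92439010-92473860, GRCm38, minus strand). It measured 19.4, 33.4 and 27.0 CPM in the knockout libraries and 45.9, 62.8 and 30.1 CPM in the wild-type libraries. WT-795 lay below mut-597, so the groups overlapped, and WT-596 and WT-597 lay above all knockout libraries. The log2 fold change was -0.80 (SE 0.28, unadjusted p = 0.0132, edgeR adjusted p = 0.459). Ndufs7, a core subunit that carries an iron-sulfur cluster, measured 17.2, 35.7 and 37.0 CPM against 51.1, 67.0 and 31.3 CPM, at a log2 fold change of -0.73. The accessory subunits Ndufa12 and Ndufv3 stood at -0.68 and -0.66. In each of these genes WT-795 was the lowest wild-type library.

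Other complex I members pointed upward without passing the test. Ndufa4, which carries a complex I name and is now placed in complex IV, measured 369.9, 379.9 and 614.8 CPM in the knockout libraries and 336.5, 296.8 and 432.5 CPM in the wild-type libraries, at a log2 fold change of 0.36 (SE 0.26, edgeR adjusted p = 0.557). mut-795 was the highest and the groups overlapped. Ndufa4 and Ndufa2 had the highest wild-type levels per kb among nuclear complex I members, at 582.4 ± 114.3 and 428.8 ± 45.3 CPM per kb (SD, n = 3). The log2 fold change of Ndufa2 was 0.28.

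Complex II, succinate dehydrogenase, also acts in the tricarboxylic acid cycle and has only nuclear subunits. The membrane anchor Sdhc measured 32.1, 52.0 and 53.7 CPM in the knockout libraries and 57.8, 71.3 and 42.4 CPM in the wild-type libraries, at a log2 fold change of -0.32. The iron-sulfur subunit Sdhb stood at -0.25, the anchor Sdhd at -0.14 and the flavoprotein Sdha at 0.12. Sdha varied least, between 44.6 and 58.0 CPM over all libraries, and in the other 3 subunits mut-596 was the lowest library. The edgeR adjusted p of these genes was at least 0.592.

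Complex III members sat close together apart from Uqcrc1, a large core protein of the matrix side. Uqcrc1 measured 37.6, 58.8 and 67.8 CPM in the knockout libraries and 93.6, 106.6 and 45.9 CPM in the wild-type libraries, at a log2 fold change of -0.58 (SE 0.30, edgeR adjusted p = 0.480). WT-795 lay between mut-596 and mut-597. Uqcr10, a small subunit, stood at -0.27, and Uqcrh, Uqcrq and Uqcr11 stood at 0.16, 0.12 and 0.09. Uqcr11 had the highest wild-type level per kb of the complex at 607.4 ± 18.01 CPM per kb (SD, n = 3).

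In complex IV the ubiquitous accessory subunits and the muscle isoforms both lay mostly below 0. Cox6b1, an accessory subunit on the outer face, measured 64.0, 114.0 and 116.8 CPM in the knockout libraries and 152.3, 231.3 and 101.3 CPM in the wild-type libraries. Its groups overlapped through WT-795, and the log2 fold change was -0.72 (SE 0.31, unadjusted p = 0.0332, edgeR adjusted p = 0.459). Cox5b and Cox8a stood at -0.57 and -0.46, and Cox6a1 and Cox4i1 at -0.44 and -0.31. Cox7b, an X-linked subunit, stood at 0.39 and Cox6c at 0.31. Cox6c and Cox7c had the highest mean wild-type levels per kb of the nuclear complex IV members, at 772.5 ± 171.2 and 569.9 ± 152.5 CPM per kb (SD, n = 3), and their ranges over the wild-type libraries overlapped.

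In complex V the delta subunit gene Atp5d measured 87.2, 117.6 and 95.4 CPM in the knockout libraries and 148.8, 201.8 and 99.9 CPM in the wild-type libraries. WT-795 lay between the knockout libraries, and the log2 fold change was -0.59 (SE 0.26, unadjusted p = 0.0400, edgeR adjusted p = 0.466). Atp5h, a stalk subunit, stood at -0.44. The Atp5g genes encode the same membrane ring subunit with different import sequences. Their log2 fold changes were -0.42 for Atp5g1, -0.34 for Atp5g2 and -0.12 for Atp5g3. Atp5l, a membrane subunit, stood at 0.28 and Atp5e, the epsilon subunit, at -0.12, and these were the complex V members with the highest mean wild-type levels per kb (769.6 ± 79.5 and 734.4 ± 226.6 CPM per kb, SD, n = 3). The top of the order of nuclear members was not resolved, with ranges over the wild-type libraries of 652.0 to 968.5 CPM per kb for Cox6c, 716.4 to 861.0 for Atp5l and 576.001 to 994.0 for Atp5e.

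Copies also touched nuclear members. Of the 85, 10 had a processed copy of at least 95% identity over at least 50% of the transcript. The 8 copies of Atp5l together held 245.2% of the count of Atp5l itself, and the 2 of Atp5g2 held 144.1%. Ndufs3, with 1 copy, followed at 46.2%, and Cox7c, with 1 copy, at 23.7%. The log2 fold changes of these genes are uncertain for that reason.

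**Figure D3:**
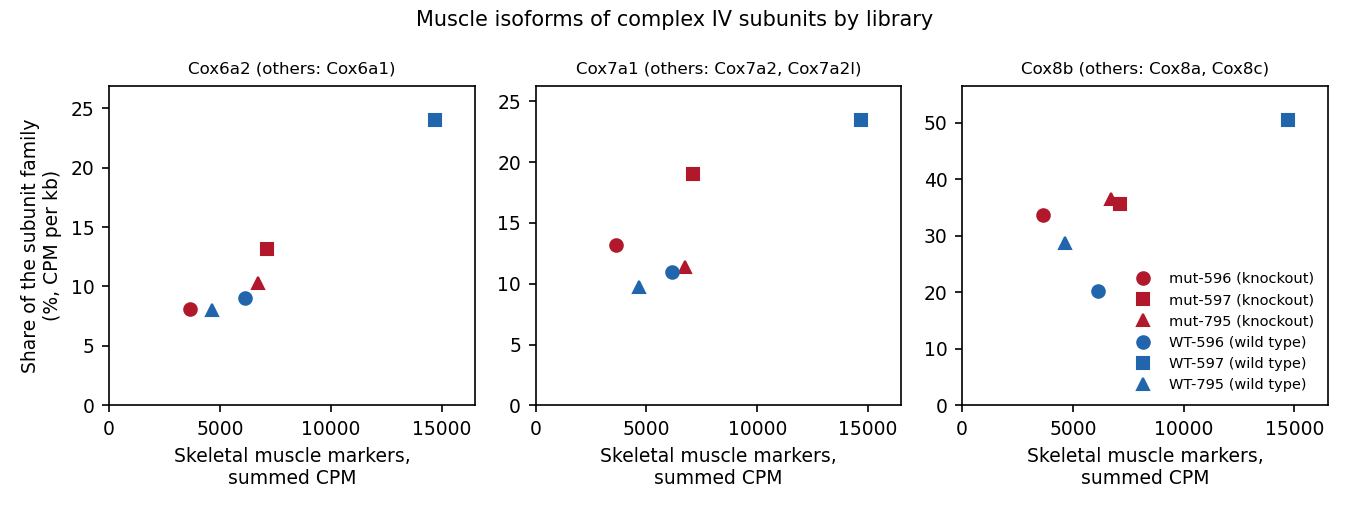
Share of the muscle isoform in its subunit family (percent of the family's CPM per kb) against the summed CPM of skeletal muscle markers, 1 point per library. WT-597, at the right, holds the highest share in each panel, and no panel separates knockout from wild type.

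The muscle isoforms of complex IV were highest in the library with the most muscle marker RNA. Cox6a2, the heart and skeletal muscle form of subunit 6a, measured 17.7, 48.4 and 33.1 CPM in the knockout libraries and 37.7, 134.7 and 25.2 CPM in the wild-type libraries. Its log2 fold change, -0.9996 (SE 0.49, edgeR adjusted p = 0.475), was the lowest of all members. WT-597 stood far above the other libraries and the groups overlapped. In the same order of libraries, the summed skeletal muscle markers were 3631, 7117, 6724, 6139, 14695 and 4657 CPM. Within its family, Cox6a2 made up 24.0% of the level per kb in WT-597 and 8.0% to 13.2% in the other libraries.

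Cox8b, the muscle and brown fat form of subunit 8, made up 50.5% of its family in WT-597 and 20.3% to 36.5% in the others, at 33.7, 54.4 and 58.1 CPM in the knockout libraries and 32.1, 150.7 and 37.1 CPM in the wild-type libraries. Cox7a1, the muscle form of subunit 7a, made up 23.5% in WT-597 and 9.7% to 19.0% in the others. Without WT-597 the log2 fold changes were 0.04 for Cox6a2, 0.48 for Cox8b and 0.72 for Cox7a1, against -0.9996, -0.59 and -0.05 with it. With the muscle markers as a covariate they were 0.11, 0.38 and 0.71. The hypoxia-responsive Cox4i2 and the testis form Cox6b2 held small shares, at most 2.0% and 2.3%, and had log2 fold changes of -0.31 and -0.57. Cox7b2 had 1 count and Cox8c had 8 counts over the 6 libraries.

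**Figure D4:**
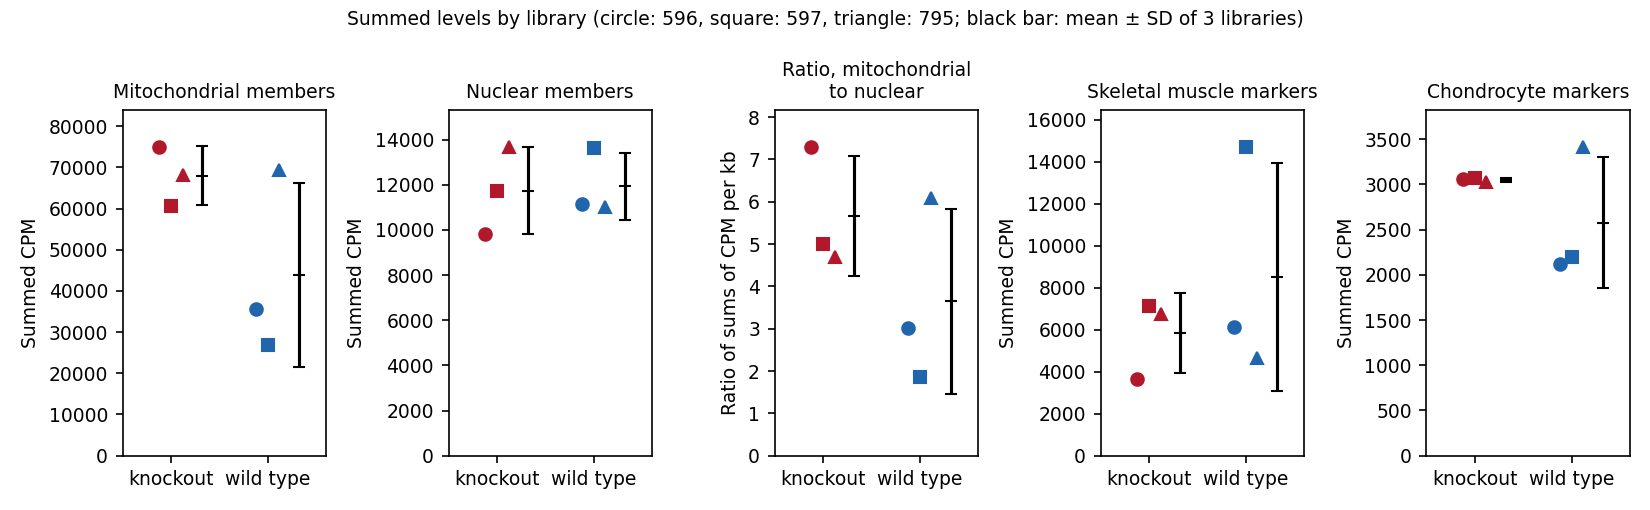
Summed CPM of the mitochondrial and nuclear members, the ratio of their sums per kb, and the summed CPM of skeletal muscle and chondrocyte markers, 1 point per library with the mean ± SD of each group. WT-795 lies within the knockout range for the mitochondrial sum and the ratio, and it has the highest chondrocyte sum.

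The balance of the genomes within a library followed the mitochondrial sum. The mitochondrial members together held 74951, 60700 and 68280 CPM in the knockout libraries and 35650, 26835 and 69281 CPM in the wild-type libraries. The knockout mean was 67977 ± 7130 CPM and the wild-type mean 43922 ± 22399 CPM (SD, n = 3 each), a ratio of 1.55 with overlapping groups. They took 7.36%, 5.61% and 6.83% of all counts in the knockout libraries and 4.14%, 2.76% and 6.23% in the wild-type libraries.

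The ratio of summed mitochondrial to summed nuclear level per kb, which does not depend on library scaling, was 7.29, 5.001 and 4.70 in knockout and 3.01, 1.85 and 6.08 in wild type. The means were 5.66 ± 1.42 and 3.65 ± 2.19 (SD, n = 3). The ratio was highest in mut-596, the library with the lowest nuclear sum, and lowest in WT-597, the library with the most muscle marker RNA. Without WT-795 the knockout mean of the ratio was 2.33 times the wild-type mean, against 1.55 times with it. These sums are descriptions and were not tested.

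The sum of chondrocyte markers split the libraries as the mitochondrial sum did. Their summed CPM was 3061, 3067 and 3024 in knockout and 2124, 2199 and 3413 in wild type, so WT-795 again stood with the knockout libraries. Most of that sum came from a single gene, Col11a1 (2714, 2654 and 2594 CPM against 1707, 1818 and 2853 CPM). Without it the other markers summed to 347.2, 413.6 and 430.0 CPM in the knockout libraries and 416.1, 380.5 and 560.1 CPM in the wild-type libraries. None of the 14 markers passed the test, with 8 above 0 and 6 below. Those below 0 included Acan at -0.54, Col9a2 at -0.54, Col2a1 at -0.49 and Col11a2 at -0.31. Without WT-795, 10 lay above 0 and 1 passed, Hapln1, a matrix link protein. With the markers as a covariate the mitochondrial median was 0.59. Prrx1, a limb mesenchyme gene, had the same order of groups, at 342.3, 288.4 and 343.1 CPM against 205.3, 170.1 and 317.9 CPM. Other genes of its list of 13 perichondrial and fibroblast markers went the other way, among them Scx at -0.66 and Col1a1 at -0.58. In that list 9 lay above 0 and 4 below. The part of cell mixture in the mitochondrial values was not tested.

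Without WT-795 the picture of the members changed most. In that fit 21 members passed the edgeR threshold, where 9.62% of all genes tested did (3.5% higher and 6.12% lower). The calls split by genome. All 9 higher ones were mitochondrial (mt-Nd1, mt-Nd2, mt-Nd3, mt-Cytb, mt-Co1, mt-Co2, mt-Co3, mt-Atp6 and mt-Atp8). All 12 lower ones were nuclear: 7 of complex I, among them Ndufa10 and Ndufs7, Uqcrc1 of complex III, Cox6b1, Cox6a2 and Cox5b of complex IV, and Atp5d of complex V. The log2 fold change of mt-Co3 was then 1.36 (SE 0.32, edgeR adjusted p = 0.020) and that of Ndufa10 was -1.05 (edgeR adjusted p = 0.020). The mitochondrial median was 0.86 and the nuclear median -0.27. Markers of other cell types differed in direction in this fit. Chondrocyte markers had a median of 0.56 (10 above 0 and 4 below) and perichondrial and fibroblast markers 0.15 (8 and 5). Among the latter, Prrx1 passed as higher at 0.76 (edgeR adjusted p = 0.0381). Endothelial markers had a median of 0.12 (3 and 3). Of the 2 heart muscle markers tested, Tnnt2 passed as lower at -1.31 (edgeR adjusted p = 0.0497). Of the 33 skeletal muscle markers all lay below 0 (median -1.07) and 17 passed, among them Des, the muscle intermediate filament, at -1.84. Of 8 osteoblast markers, 3 passed as lower (Ifitm5, Bglap and Bglap2), and of 9 macrophage and osteoclast markers 2 did (Cd68 and C1qb). The part of cell mixture in the 12 lower nuclear members was not tested. WT-795 was singled out by its mitochondrial level and GC trend, so the calls in this fit are not independent evidence. The labels give no reason to leave WT-795 out, and the values with all 6 libraries are the result.

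**Figure D5:**
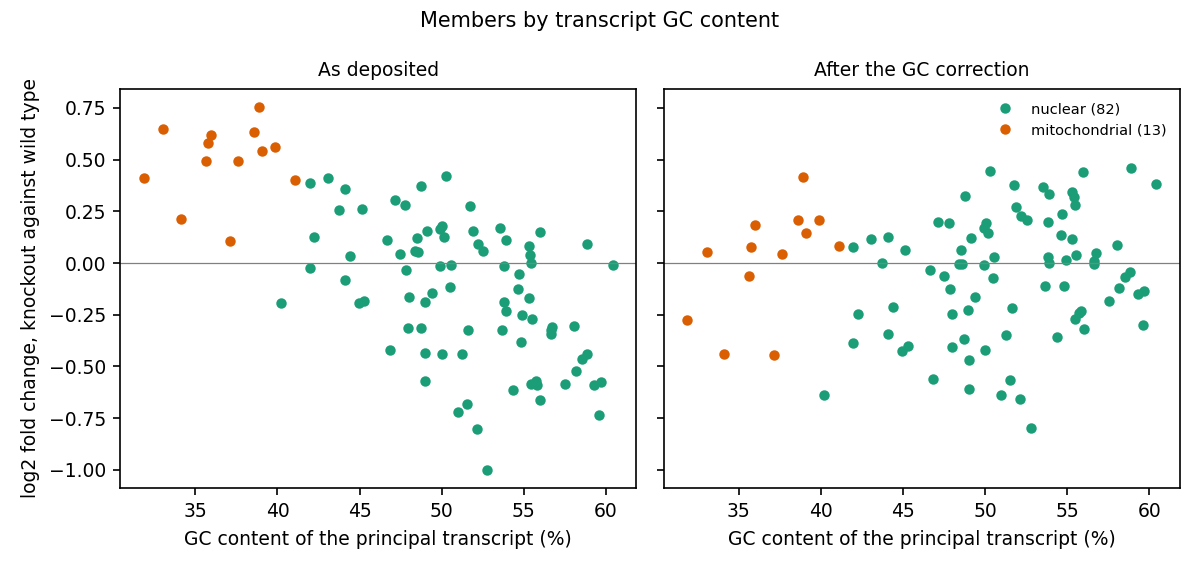
Log2 fold change against the GC content of the transcript for 82 nuclear and 13 mitochondrial members, before (left) and after (right) a correction for the GC trend of each library. On the left the values fall from the GC-poor mitochondrial members to the GC-rich nuclear members; on the right both genomes are spread around 0.

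The log2 fold changes of the members varied with base composition. Mitochondrial members had a median GC content of 37.1% and nuclear members 51.6%. Among nuclear members the log2 fold change and the GC content of the transcript had a Spearman correlation of -0.47 (across 82 genes of the same 6 libraries, which are not independent). Over 15701 genes it was -0.62, and among the 13 mitochondrial members it was 0.08. With the nuclear members split into 3 bins of rising GC content, the medians were 0.05, -0.07 and -0.32, and 22 of the 27 members in the highest bin lay below 0. Of all genes with a GC value, 9.52% had a GC content within the range of the mitochondrial members (31.9% to 41.1%).

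After the GC trend of each library was removed through offsets, the mitochondrial median was 0.08, with 9 members above 0 and 4 below. The nuclear median was -0.01, with 37 above and 45 below. The correction was fitted over all genes, where the correlation with GC became -0.01. Within the members it left a correlation above 0, at 0.22 among the 82 nuclear and 0.63 among the 13 mitochondrial members, so single corrected values still varied with GC content. mt-Co3 stood at 0.42, mt-Co2 and mt-Co1 at 0.21 each, and mt-Cytb at 0.14. mt-Nd5 and mt-Nd6 stood at -0.44 each, mt-Atp8 at -0.28 and mt-Nd4 at -0.06. With all 6 libraries the correction moved the median of nuclear complex IV from -0.37 to -0.04 and that of mitochondrial complex IV from 0.63 to 0.21, and Cox6b1 stood at -0.64 and Atp5d at -0.15. With the correction and without WT-795, 0 members and 83 genes passed the edgeR threshold, and the nuclear complex IV median was -0.11. The GC trend differed between libraries: the correlation of a nuclear member's deviation from the wild-type mean with GC was -0.45, -0.23 and -0.51 in the knockout libraries and 0.24, 0.39 and -0.44 in the wild-type libraries. WT-795 again stood with the knockout libraries. Whether the GC trend has a technical or a biological origin was not tested.

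The nuclear genes of this system share promoter elements, and stretches were read for them from RefSeq (GRCm38.p6, 250 bases before to 50 after the start of the gene). Of the nuclear members 69 matched a promoter. The element of NRF1, a transcription factor of respiratory genes, was searched on both strands as GCGCA, any base, then GCGC. It was present in 17 of 69 promoters (24.6%), against 5.19% of all 27025 promoters and 11.2% of the 10233 promoters of genes tested here. AAGATGGC, the element of YY1, was present in 10 (14.5%), against 3.19% of all and 5.21% of tested genes. CCGGAAGT, the element of GABPA, was present in 5 (7.25%, against 4.31% and 8.77%). TNAAGGTCA, the element of the estrogen-related receptor alpha, was present in 3 (4.35%, against 1.43% and 0.889%). CCAAT was present in 30 (43.5%, against 41.1% and 43.1%).

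The median log2 fold change was -0.19 for members with the NRF1 element and -0.16 for members without it, and for the YY1 element 0.04 with it and -0.18 without it. A match is only a match of letters and says nothing about binding. Members of different complexes that share the exact NRF1 sequence, given in capitals, are printed upstream of the gene start in the direction of the gene. Cox6a1 lies at chr5:115349086-115349145 (minus strand), Atp5k at chr5:108434415-108434474 (minus strand) and Ndufa11 at chr17:56717677-56717736 (plus strand).
Cox6a1: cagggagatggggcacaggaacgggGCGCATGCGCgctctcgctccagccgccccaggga
Atp5k: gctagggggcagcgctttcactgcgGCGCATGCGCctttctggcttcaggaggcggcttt
Ndufa11: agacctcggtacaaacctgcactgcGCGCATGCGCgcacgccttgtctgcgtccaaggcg
Their log2 fold changes were -0.44, -0.23 and -0.52.

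Lists of genes that serve the same system lay close to the nuclear members, and with all 6 libraries none held a gene past the edgeR threshold. Assembly factors had a median log2 fold change of -0.07 (20 above 0 and 26 below). The 2 with the smallest p were Tmem186, a complex I assembly factor, at -1.14 and Ndufaf3 at -0.62. Electron carriers and ATP synthase parts outside the symbol rule had a median of -0.12 (7 and 13), led by the coenzyme Q enzymes Coq6 at -0.69 and Coq9 at -0.44. Genes that copy, transcribe and process mitochondrial nucleic acids had a median of 0.04 (16 and 13). The helicase gene Twnk stood at -0.57 and the tRNA processing enzyme Elac2 at -0.75.

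Regulators of mitochondrial biogenesis had a median of -0.11 (6 above 0 and 7 below), with Gabpb1, the partner of GABPA, at -0.80 and the nuclear receptor Ppard at -1.17. The tricarboxylic acid cycle had a median of -0.13 (8 and 10). Its Ogdh, a subunit of the oxoglutarate dehydrogenase complex, averaged 20.4 ± 3.13 CPM in the knockout group and 37.0 ± 13.2 CPM among wild-type libraries (SD, n = 3 each). Its log2 fold change was -0.87 (edgeR adjusted p = 0.459). Citrate synthase, Cs, stood at -0.58. The mitochondrial ribosome, which makes the proteins of the 13 mitochondrial members, had the lowest median of these lists at -0.20, with 22 above 0 and 55 below. Its members with the smallest p were Mrpl4 at -0.997 and Mrps12 at -0.85.

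Without WT-795 some of these genes passed as well. The mitochondrial ribosome had 7 of 77 genes past the threshold, all lower, where 6.12% of all genes tested passed as lower, and its median was -0.33. Mrpl4 stood at -1.23 (edgeR adjusted p = 0.0152) in that fit. In the tricarboxylic acid cycle 2 of 18 passed as lower, Ogdh at -1.14 (edgeR adjusted p = 0.0126) and Cs at -0.86 (edgeR adjusted p = 0.0230). Of the assembly factors only Tmem186 passed, at -1.34 (edgeR adjusted p = 0.0435). Of the genes that handle mitochondrial nucleic acids 1 passed, Slirp, an RNA-binding protein of mitochondrial messages, which was higher at 0.73 (edgeR adjusted p = 0.0459). Electron carriers and biogenesis regulators had 0. Slirp and cell type markers such as Hapln1, Bglap and Col11a1 were named after their values were seen.

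The authors' deposited table of differential genes lists log2 fold changes only. It names 13 of the members among its 1643 genes, which are 10.5% of the number tested here. It lists 6 mitochondrial members as higher, with values from 0.48 for mt-Nd4 to 0.75 for mt-Co3. It lists 7 nuclear members as lower, from -0.58 for Ndufb7 to -0.81 for Ndufa10, the others being Atp5d, Cox6b1, Ndufa12, Ndufs7 and Ndufv3. Of the rows in the authors' deposited table, 1609 equalled a DESeq2 fit of these counts within 0.0001, and all of those had an unadjusted p below 0.05 there (0.04996 at most).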

How the data were processed

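The authors deposited 1 matrix of raw counts, whole numbers for each gene, from RNA sequencing of 3 knockout and 3 wild-type libraries made from full-length amplified cDNA cut by transposase, per the labels' protocols. The submitters' processing notes name GRCm38.p6 and DESeq2, with the aligner and counting settings not given in the sources used here. A second file, the authors' deposited table, holds log2 fold changes.

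Counts were fitted with edgeR 4.0.16 in R 4.3.3 (TMM, filterByExpr by group, quasi-likelihood test, two-sided, Benjamini-Hochberg over 15712 genes, threshold 0.05); DESeq2 1.42.0 and limma 3.58.1 were alternatives. The procedure was tested on simulated data. Symbols, positions, GC content and length came from GENCODE M21, and values per kb use the principal transcript. The GC correction removed a lowess trend (span 0.3) per library. Copies were found by alignment of transcripts. Other alternatives were scaling, filters, covariates (muscle, chondrocyte, Xist), a replicate block and leaving out libraries.

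The members and lists were chosen with earlier results of these data known. Named genes were Fbn1, the mitochondrial members, the isoform families, Ndufa4 and complex II. For each other nuclear complex they were the 4 members with the smallest p and the 2 highest per kb. From each list of genes that serve the same system they were the 2 with the smallest p. Cell type markers were named outside this rule. Reads carry no molecular identifiers, so amplified copies of a molecule cannot be told apart from separate molecules. The SE and SD values include variation among the libraries.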

Additional observations from a re-analysis of the deposited data

How the results depend on the processing

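The 13 mitochondrial members kept a median log2 fold change above 0 in all alternatives, and the nuclear median changed sign. Leaving out each library gave 0.32 to 0.86 for the mitochondrial and -0.27 to 0.022 for the nuclear median. The mitochondrial median was 0.079 with the GC correction and 0.15 with the GC correction and without WT-795. The nuclear median was 0.083 with the muscle covariate, 0.060 with the Xist covariate, 0.040 without both Xist libraries and 0.12 without WT-597 and mut-596. When each library was left out, 1 to 1512 genes and 0 to 21 members passed, and both maxima came without WT-795. Without mut-795, 9 genes passed. With no filter on low counts 270 genes passed, 237 of them lower, and 1 member, Cox6a2. DESeq2 called 4 genes, the Xist covariate 0, the fit without WT-597 and mut-596 2, and the GC correction without WT-795 83. Leaving out each library moved the fold of the mitochondrial sum between 1.30 and 2.18 and that of the ratio between 1.25 and 2.33. The chondrocyte covariate, the fits without both Xist libraries, without WT-597 and mut-596, and without WT-795 with the GC correction, were chosen after seeing the data.

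Whether the numbers in the titles pair the libraries could not be decided. Deviations of same-numbered libraries correlated at -0.18, 0.24 and -0.20. These values lay within the range for knockout and wild-type libraries of different numbers, -0.29 to 0.38, so they do not settle the pairing. With the replicate block 1 gene and 0 members passed. With the replicate block and GC correction 4 genes and 0 members passed, and the mitochondrial median was 0.076. Under the replicate block Cox7a1 was 0.15.

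Of 51 named genes, 20 changed sign in at least 1 of the planned fits, which leave out those chosen after seeing the data. Among the 20, only Cox6a2 passed the threshold in a fit of all libraries, with no filter on low counts. Values under the GC correction were 0.14 for Atp5e, 0.088 for Cox4i1, 0.050 for Cox4i2, 0.24 for Cox7a1, -0.033 for Cox7c, 0.016 for Sdhb, 0.041 for Uqcr10, -0.28 for mt-Atp8, -0.061 for mt-Nd4, -0.44 for mt-Nd5 and -0.44 for mt-Nd6. With the replicate block as well they were 0.16, 0.069, 0.062, 0.40, -0.016, 0.012, 0.032, -0.26, -0.060, -0.43 and -0.42 in the same order, and Cox8b was 0.051. With the muscle covariate Atp5e was 0.11, Atp5g3 0.074, Cox4i2 0.083, Cox6a2 0.11, Cox6b2 0.094, Cox7a1 0.71, Cox7a2l 0.023, Cox8b 0.38 and Uqcr10 0.047. With the Xist covariate Atp5g3 was 0.017, Cox7a2l 0.14, Sdhd 0.096 and Uqcr10 0.060. limma-voom gave 0.14 for Cox7a1. Leaving out each library gave ranges of -0.28 to 0.14 for Atp5e, -0.22 to 0.030 for Atp5g3, -1.40 to 0.045 for Cox6a2, -0.36 to 0.72 for Cox7a1, -0.095 to 0.28 for Cox7a2, -0.11 to 0.080 for Cox7a2l, -0.074 to 0.33 for Cox7c, -0.96 to 0.48 for Cox8b, -0.29 to 0.0038 for Sdhd, -0.16 to 0.34 for Uqcrh and -0.00061 to 0.19 for Uqcrq. The causes of these changes were not tested. Depth limits the rarest members, such as Cox6b2 at 1.06 to 4.53 CPM.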
